A study of Homo sapiens with 4 samples.

Results

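Cytosolic ribosomal protein genes were examined in a map of chromatin pulled down with an antibody to BRCA2. A gene was a member when its symbol had the form RPL or RPS with a number and an optional A, X or L, or was RPLP0, RPLP1, RPLP2 or RPSA. The authors' deposited table holds 15131 sites. Members were paired with 101 of them, over 71 symbols. Of the 85 protein-coding genes that fit the rule in a RefSeq gene table, 68 had a site, and the other 3 symbols were RPS10L, RPL12L3 and RPL7AL2, which that table lists as synonyms of pseudogenes.

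The study set 2 libraries of BRCA2 ChIP (chromatin immunoprecipitation, antibody Bethyl A300-005A) against 2 libraries of input chromatin. All 4 came from hTert-HME1, a human mammary epithelial line carrying telomerase, fixed with formaldehyde during log-phase growth in a mammary epithelial medium. The labels name no treatment, no genotype contrast and no separate cultures, so the FDR may measure technical variation among the 4 libraries rather than variation between cultures. The files hold no expression values, so the identity of the line was not checked against its markers.

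The deposited values are group means with no value per library, so no spread between replicates can be given and sequencing depth is unknown. Each site has a ChIP and an input concentration, which is the log2 of normalized reads. The log2 fold is the difference between them, ChIP less input. All site values below were taken from the authors' deposited table, with positions on hg19. No library from an unrelated antibody was used here, and BRCA2 binding and unspecific recovery of chromatin cannot be told apart.

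The cytosolic ribosome is built from a small (40S) subunit, which reads the mRNA, and a large (60S) subunit, which forms peptide bonds. Each contains ribosomal RNA and a set of proteins, nearly all of them encoded by single active genes that are short and strongly transcribed in dividing cells. Their mRNAs start with a C followed by a run of pyrimidines, the TOP (terminal oligopyrimidine) motif, through which mTORC1 signalling controls their translation. BRCA2 acts in homologous recombination and protects stalled replication forks.

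The start sequences are shown because sites at starts make up more than any other class of the member sites. They are from RefSeq on GRCh38.p14, not the build of the sites. Promoter entries were matched for 68 of the 85 genes. Each line holds 20 bases before the start and 20 from it, 5′ to 3′ on the gene's strand, and capitals mark the unbroken run of C and T that contains the first transcribed base. For RPL19, which has 2 RefSeq starts, the one with the longer run is shown. By the listed starts of the sites, RPL35, RPL19 and RPS6 had the strongest start sites among genes with a promoter entry. RPL22 also has an entry but is not ranked here, since its site lies inside its listed gene and its RefSeq start was not compared. RPL38, RPL18 and RPL26 had a weaker start site and a stronger end site, and RPL28, RPL21 and RPS13 had weak start sites.
RPL35 (chr9:124861938-124861977, minus strand): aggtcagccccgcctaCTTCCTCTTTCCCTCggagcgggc
RPL19 (chr17:39200303-39200342, plus strand): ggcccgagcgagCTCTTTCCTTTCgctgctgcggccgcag
RPS6 (chr9:19380217-19380256, minus strand): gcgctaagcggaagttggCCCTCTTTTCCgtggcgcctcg
RPL38 (chr17:74203658-74203697, plus strand): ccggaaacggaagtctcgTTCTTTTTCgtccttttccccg
RPL18 (chr19:48619159-48619198, minus strand): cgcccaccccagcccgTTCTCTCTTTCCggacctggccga
RPL26 (chr17:8383174-8383213, minus strand): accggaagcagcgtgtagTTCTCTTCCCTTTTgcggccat
RPL28 (chr19:55385912-55385951, plus strand): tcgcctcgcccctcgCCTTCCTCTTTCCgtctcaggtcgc
RPL21 (chr13:27251538-27251577, plus strand): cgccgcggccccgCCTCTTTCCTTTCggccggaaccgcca
RPS13 (chr11:17077648-17077687, minus strand): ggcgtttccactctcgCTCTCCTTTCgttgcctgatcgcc

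All 9 genes, which were picked for display, have a pyrimidine run of at least 8 bases across the start. So few picked genes cannot show whether strong and weak start sites differ in this. Over all 84 promoter entries of the members, 53 (63.1%) had C as the first transcribed base, against 11.4% of 22199 entries of coding genes. Such a C lay within a run of at least 8 pyrimidines in 46 entries (54.8%), against 4.32% of all entries. The letters CTTTC on the gene strand, within 250 bases before and 50 from the start, were in 59.5% of member entries and 31.7% of all. The longer CTCTTTC, which contains them, was in 19.0% and 3.81%. CCGGAAG, an ETS-type motif read on both strands, was in 33.3% and 12.8%. AAGATGGC, the core bound by YY1, was in 8.33% and 3.53% on either strand. GGGCGG, the GC box, was in 54.8% and 56.3%, CCAAT in 33.3% and 34.7%, and CACGTG, the E-box, in 5.95% and 8.34%, all on both strands. TATAAA on the gene strand was in 4.76% and 6.48%, while TGACGTCA, the CRE, was in 3.57% and 2.26% on either strand, and the palindromic NRF1 motif in 1.19% and 1.50%. These are matches of letters and not binding sites.

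Most ribosomal protein genes carried a BRCA2 site, and the sites over or past their ends had a higher median fold than those at their starts. Of the 85 genes, 68 (80.0%) had a site, where 44.2% of 20056 coding genes did. A site over the start or within 1 kb of it was held by 54 (63.5%), where the share of coding genes was 23.4%. A site over the end or within 1 kb past it was held by 20 (23.5%), where the share was 3.10%. A fold is listed only for sites that reached the table's FDR limit of 0.05, so every member site passed it, and a gene without a site is one that is not in this list.

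Member genes are short, with a median RefSeq length of 5035 bp against 24092 bp for coding genes. Among genes of at most 10 kb, 18 of 72 members (25.0%) had an end site, against 4.27% of 5708 coding genes, and 48 of 72 (66.7%) had a start site, against 17.0%. The part of gene length in these shares was not tested further.

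The median log2 fold of the 101 member sites was 1.49, with quartiles of 1.17 and 2.11, against 1.15, 0.93 and 1.5 over all sites. In all, 29 member sites (28.7%) had a log2 fold of 2 or more, a 4-fold enrichment, where the share of all sites was 10.9%. An FDR under 0.001 was reached by 75 (74.3%), where the share was 44.6%. Of the 29 strong sites, 16 were end sites, 5 start sites, 7 inside a gene and 1 further away. The 15 strongest were 9 end sites, 4 start sites and 2 sites inside a gene.

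**Figure D1:**
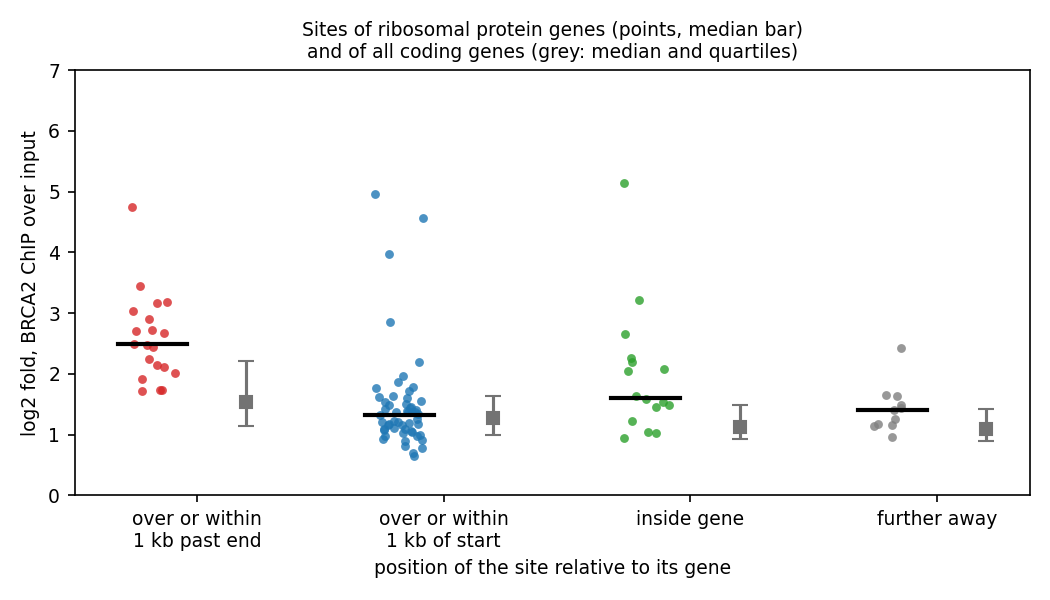
Log2 fold of BRCA2 ChIP over input (y axis) for each ribosomal protein gene site, by its position relative to the gene (x axis). Black bars are medians of the members, and grey squares with bars are the median and quartiles over sites of all coding genes. End sites have a member median of 2.49 and start sites 1.33, against 1.54 and 1.27 over coding genes.

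Sites over or just past gene ends were the strongest class. The 20 end sites had log2 folds from 1.72 to 4.74 with a median of 2.49, against a median of 1.54 for 610 end sites of coding genes. Among genes of at most 10 kb, the median of each gene's strongest end site was 2.49 in members and 1.76 in coding genes. Of the 20 member end sites, 16 (80.0%) had a log2 fold of 2 or more, where the share of coding end sites was 30.0%. Their median ChIP concentration was 7.70, against 6.86 over coding end sites, and their median input was 5.12, against 5.34. Of the 20, 17 lay wholly past the listed end, with the near edge 51 to 790 bp from it, and 3 spanned it.

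Among 60S genes, RPL38, which in mouse is needed for translation of certain Hox mRNAs, had the strongest end site. It lay 131 bp past the end, with a ChIP concentration of 7.78 and an input of 4.33 (log2 fold 3.45, FDR 3.21e-23). RPL18 had 7.94 and 4.74 at a site 239 bp past the end (log2 fold 3.19, FDR 6.08e-22), which is also over the start of FAM83E. RPL13 had 7.79 and 4.62 (log2 fold 3.17) only 51 bp past the listed end. RefSeq gives RPL13 a length of 6173 bp, against a listed length of 3886 bp, and at which end the 2 differ was not analysed.

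RPL17, which lines the peptide exit tunnel, had a ChIP concentration of 7.08 and an input of 4.17 (log2 fold 2.91) at 790 bp past the end, over the start of C18orf32. RPL35A, mutated in Diamond-Blackfan anemia, had 8.06 and 5.33 (log2 fold 2.73), and RPL26, near the exit of the peptide tunnel, 8.14 and 5.46 (log2 fold 2.68). The RPL26 site also covers the start of KRBA2. RPL35 had 7.63 and 5.14 (log2 fold 2.49) at 735 bp past the end, inside WDR38.

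RPL3, close to the peptidyl transferase centre, had a log2 fold of 2.48 at 707 bp past the end. RPL23A, a docking point for the signal recognition particle, had 2.44 at 648 bp, over or within 1 kb of the start of NEK8. RPL13A had 2.11 at 366 bp and RPL7A 1.72 at 564 bp. Of the stalk proteins, which recruit translation factors, RPLP1 had 2.25 at 416 bp and RPLP0 1.73 at 445 bp.

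The 3 sites that spanned a listed end had a median log2 fold of 2.02. RPL22L1, a paralog of RPL22, had a log2 fold of 2.15, RPL41, which encodes a very short protein, 2.02, and RPL4, another tunnel protein, 1.74. The RPL41 site also covers the starts of ZC3H10 and ESYT1, and that of RPL4 the start of SNAPC5.

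Only 3 of 31 genes of the 40S subunit had an end site, against 15 of 46 of the 60S subunit (9.68% and 32.6%). The difference was not tested. RPS2, close to the mRNA entry channel, had a ChIP concentration of 8.33 and an input of 5.29 (log2 fold 3.04, FDR 1.52e-20) at 467 bp past the end, inside NDUFB10. RPS19, the gene most often mutated in Diamond-Blackfan anemia, had 6.96 and 5.04 (log2 fold 1.92) at 137 bp.

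The largest end value belonged to a paralog. At RPL7L1, a relative of RPL7 with a role in ribosome assembly, the ChIP concentration was 10.74 and the input 6.00 (log2 fold 4.74, FDR 1.31e-78), 713 bp past the end. This FDR was the smallest of any member site. The same site covers the start of C6orf226, on the opposite strand, and the table cannot assign it to either gene.

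Of the 20 end sites, 8 lay over or within 1 kb of the listed start of another gene, and their median log2 fold was 2.69. The same share over end sites of coding genes was not computed. The other 12, with no such start, had a median of 2.37 and ranged from 1.72 to 3.45. Of these 12, 5 lay inside another gene. Among all 20 end sites only 1, that of RPL22L1, was paired with no other gene. A small nucleolar RNA gene was paired with 17 of the 101 member sites, as SNORD68 was with the end site of RPL13 and SNORD35A with that of RPL13A. The share over all sites was not computed, so whether this count is high for the members cannot be said. Small nucleolar RNAs are often encoded in introns of ribosomal protein genes.

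**Figure D2:**
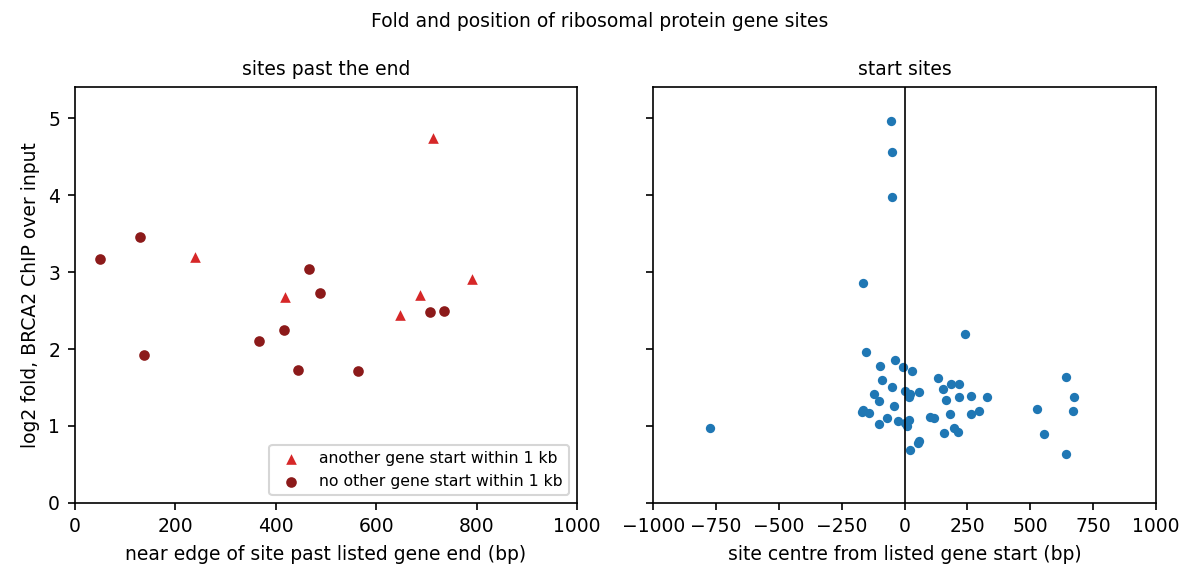
Log2 fold (y axis) against position (x axis, bp). Left, the 17 sites wholly past a listed gene end, by the distance of the near edge, with triangles where another gene starts within 1 kb. Right, the 54 start sites, by the distance of the site's centre from the listed start, where 43 lie within 250 bp.

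Start sites were more frequent and mostly weaker. There were 54, 1 per gene, with log2 folds from 0.64 to 4.96 and a median of 1.33, against 1.27 for 4204 start sites of coding genes. Only 5 (9.26%) had a log2 fold of 2 or more, where the share of coding start sites was 14.6%. Their median ChIP concentration was 6.90, against 6.65 over coding start sites, and their median input 5.60, against 5.38. The site centre was within 250 bp of the listed start in 43 of 54, upstream in 20 and downstream in 34, with a median of 26.5 bp downstream, and 5.5 bp downstream over coding genes.

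RPL35, next to the exit tunnel, had a ChIP concentration of 10.03 and an input of 5.07 at its start (log2 fold 4.96, FDR 1.09e-54). The site also covers the start of ARPC5L, on the opposite strand. RPL19, part of a bridge between the subunits, had 10.39 and 5.83 (log2 fold 4.56, FDR 8.14e-59), with no other gene paired.

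RPS6, the substrate of the S6 kinases, had 8.21 and 5.34 (log2 fold 2.86, FDR 2.39e-21), and RPL30 6.53 and 4.32 (log2 fold 2.20). The other 49 start sites were below a log2 fold of 2. Among them RPL39 had 1.96, RPS7 1.86 and RPS27 1.78.

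RPL5 and RPL11 join the 5S ribosomal RNA and, when free, bind MDM2. RPL5 had a ChIP concentration of 7.20 and an input of 5.58 (log2 fold 1.62, FDR 2.85e-07), and RPL11 had 6.66 and 5.87 (log2 fold 0.78, FDR 0.0205). RPS14, whose loss is a feature of a myelodysplastic syndrome, had 7.11 and 5.93 (log2 fold 1.18). RPSA, also known as a laminin receptor, had 6.83 and 5.79 (log2 fold 1.04), and RPS27A, made as a fusion with ubiquitin, 6.77 and 5.61 (log2 fold 1.16).

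The smallest folds of the members were all at starts. RPL28 had 6.65 and 6.01 (log2 fold 0.64, FDR 0.0473), RPL21 6.74 and 6.05 (0.69), RPL11 0.78, RPS13 6.89 and 6.08 (0.81) and RPL37A 6.78 and 5.88 (0.90). Inputs of 5.87 to 6.08 at these 5 sites were above the start median of 5.60. At RPL29 the start had a log2 fold of 1.42 with an FDR of only 0.0295, while RPS20 had 1.41 with an FDR of 2.96e-05.

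Of the 54 start sites, 23 lay within 1 kb of the start of another gene, and in 17 that gene was on the opposite strand. The same shares over start sites of coding genes were not computed. The shared sites had a median log2 fold of 1.22 and the other 31 a median of 1.38. Examples of such neighbours were LIAS at RPL9 (log2 fold 1.48), LRSAM1 at RPL12 (1.45) and NDUFA7 at RPS28 (1.54).

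Both an end and a start site, at different positions, were found in 12 genes. The end site had the larger log2 fold in 11 of 12, with a median difference of 1.22 (end minus start). In coding genes it was larger in 128 of 221 (57.9%), with a median difference of 0.17. The ChIP concentration was higher at the end in 9 of 12 (median difference 0.58), and in 119 of 221 coding genes (0.05). The input was lower at the end in 9 of 12 (median difference -0.62), and in 120 of 221 coding genes (-0.07). In the members both parts of the fold differed. Both member counts use the concentrations as listed, with no adjustment for the unequal site widths at RPLP1 and RPL35A.

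RPL18 had 3.19 at the end and 1.60 at the start, and RPL38 had 3.45 at the end and 1.77 at the start. RPL35A had an input of 5.33 at both positions and ChIP concentrations of 8.06 at the end and 6.70 at the start. Its end site is 848 bp wide and its start site 500 bp, so these too are not over equal widths. At RPLP1 the start site is 930 bp wide and the end site 500 bp, so the concentrations are not over equal widths. ChIP there was 6.77 at the end and 7.35 at the start, while input was 4.53 at the end and 6.19 at the start. At RPS19, where both sites are 500 bp wide, ChIP was 6.96 at the end and 7.44 at the start. Its input was 5.04 at the end and 6.12 at the start, so the order rested on the input. RPL35 was the exception, with 2.49 at the end and 4.96 at the start.

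**Figure D3:**
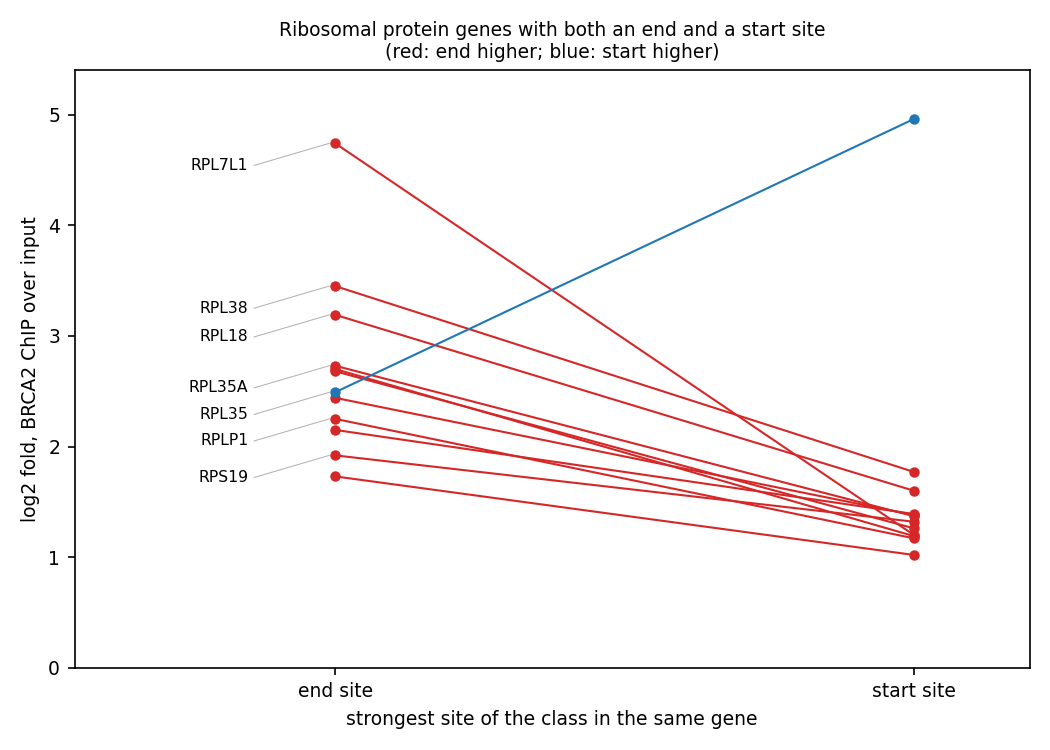
Log2 fold (y axis) of the strongest end site and the strongest start site (x axis) in each of the 12 genes that had both, with a line per gene and names for 7 of them. The line falls toward the start in 11 genes and climbs in RPL35, which had 2.49 at its end site and 4.96 at its start site.

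Sites inside a gene and over 1 kb from the start by the listed distance numbered 16, in 13 genes. Their median log2 fold was 1.61, against 1.13 for 5879 such sites of coding genes, and 7 (43.8%) reached a log2 fold of 2, where the share of coding genes was 10.2%. The 2 classes differ in position, with median site centres 9439 bp from the listed start in members and 34654.5 bp in coding genes. The part of gene length and annotation in this difference was not tested. By its listed start, the strongest member site of all was in this class. At RPL22, a 60S protein that also binds viral small RNA, the ChIP concentration was 10.32 and the input 5.19 (log2 fold 5.14, FDR 1.27e-63), from 6259649 to 6260148 on chromosome 1. The near edge was 9301 bp from the listed start. In RefSeq the start of RPL22 lies between 6199576 and 6199615 of chromosome 1 on GRCh38.p14. Positions were not converted between the builds, so whether the site covers that start was not tested.

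Listed genes were in some cases much longer than in RefSeq, and then the class depends on the annotation. This holds for RPL22, whose listed length is at least 19102 bp by the distances in the authors' deposited table, against 14576 bp in RefSeq. It also holds for RPL27A, with at least 12992 bp against 7081 bp. RPL10, which joins the 60S subunit late, had a pair of sites with log2 folds of 3.21 and 2.19. They lay 11287 and 11867 bp from a listed start, in a listed gene of 19190 bp, while RefSeq gives RPL10 a length of 4275 bp. A site of RPS9 with a log2 fold of 2.65 began 7609 bp from the start, beyond the RefSeq length of 6790 bp. RPL4, listed with 26516 bp, has 6841 bp in RefSeq, and its inside site (log2 fold 1.63) is over the start of ZWILCH.

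In RPS23, at the decoding centre, the inside site (log2 fold 2.26) ended 1075 bp before the listed end. In RPS19 the inside site (2.08) ended 498 bp before the listed end, next to the site past it. The last strong site of the class, at RPL28 (2.04), is over the start of CTD-2105E13.13. The weaker ones included RPL27A (1.59 and 1.46), RPS24 (1.53) and RPL6 (1.05). RPL3L, a paralog used in heart and skeletal muscle, had a ChIP concentration of 5.73 and an input of 4.80 (log2 fold 0.94, FDR 0.0266).

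The other 11 sites were further away and had log2 folds of 0.96 to 2.42. They included 2 sites upstream of RPS21 (1.49 and 1.43, at listed distances of 6055 and 9035 bp), 2 downstream of RPS14 (1.15 and 0.96) and 1 upstream each of RPL37A (1.65), RPL29 (1.64), RPL39L (1.40) and RPLP2 (1.14). The pseudogene symbols had 1 site each. The strongest of these was 16400 bp from RPS10L (log2 fold 2.42), inside FAM110A.

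**Figure D4:**
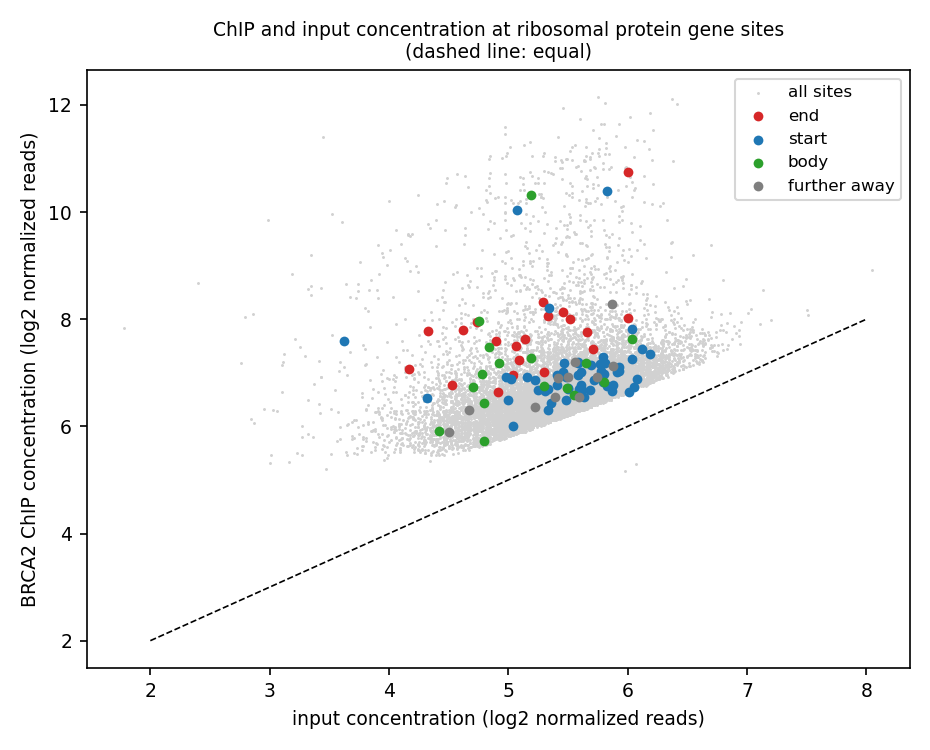
BRCA2 ChIP concentration (y axis) against input concentration (x axis), both as log2 normalized reads, for all 15131 sites (grey) and the 101 sites of ribosomal protein genes by class. A few members stand above a ChIP concentration of 10: RPL7L1 at its end (10.74), RPL19 (10.39) and RPL35 (10.03) at the start, and RPL22 inside the listed gene (10.32).

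By subunit, 24 of 31 genes of the 40S subunit (77.4%) and 39 of 46 of the 60S subunit (84.8%) had a site, and start sites were held by 21 (67.7%) and 30 (65.2%). Median log2 folds were 1.21 for 40S starts and 1.35 for 60S starts, a difference that was not tested. Of 8 paralogs, 5 had a site: RPL7L1, RPL22L1, RPS27L (1.63), RPL39L and RPL3L. Of 18 genes mutated in Diamond-Blackfan anemia, 16 (88.9%) had a site, and all 16 had one at the start. The shares over all members were 80.0% with a site and 63.5% with a start site, and over coding genes 44.2% and 23.4%. The list is part of the members, and the differences were not tested. Of the 71 symbols, 45 had 1 site, 22 had 2 and 4 had 3.

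The 17 members with no site in the table included RPS3, RPS3A, RPS4X, RPS15, RPS18, RPS25 and RPS29 of the 40S subunit, RPL7, RPL8, RPL14, RPL15, RPL34 and RPL36 of the 60S subunit, and the paralogs RPL10L, RPL26L1 and RPL36AL. Chromosome 19 held 16 member sites (15.8%), against 5.56% of all sites. The share of member genes that lie on this chromosome was not computed, so whether the count is high for their location cannot be said.

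Related gene groups are given beside the coding-gene shares of 44.2% with a site, 23.4% with a start site and 3.10% with an end site. Mitochondrial ribosomal protein genes, which make the ribosome of another compartment, had start sites in 42 of 77 (54.5%) but an end site in 1 (1.3%). Their start sites had a median log2 fold of 1.27. Among 19 other genes with TOP mRNAs, 14 (73.7%) had a site, 4 (21.1%) an end site and 8 (42.1%) a start site. The strongest were EEF1D (6.14, inside the gene), VIM (4.26, 12850 bp from the gene) and GNB2L1 (3.87, inside the gene). The 4 end sites were those of the elongation factors EEF1A1 (3.72) and EEF2 (2.99), of GNB2L1 (1.81), which encodes a 40S-bound scaffold, and of HNRNPA1 (1.73). FAU, which encodes a ribosomal protein fused to a ubiquitin-like protein, had a start site with a log2 fold of 1.26.

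Of 58 ribosome biogenesis genes, 42 (72.4%) had a site, 29 (50.0%) at the start and 3 (5.17%) at the end, the last close to the coding-gene share of 3.10%. NOP56, of the box C/D small nucleolar particles, had 5.43, UTP18 5.32 and LSG1 4.25, all at starts. Of 14 genes of RNA polymerase I and its factors, 9 (64.3%) had a site, 7 (50.0%) a start site and 1 (7.14%) an end site. CD3EAP had 5.48, POLR1B 4.49 and POLR1A 4.40, also at starts. Of 4 genes picked as basal epithelial markers, 3 (75.0%) had an end site: KRT17 (3.96), KRT5 (2.99) and KRT14 (2.71). TP63 had sites only inside the gene or further away. No test of these groups against each other or against coding genes was run.

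**Figure D5:**
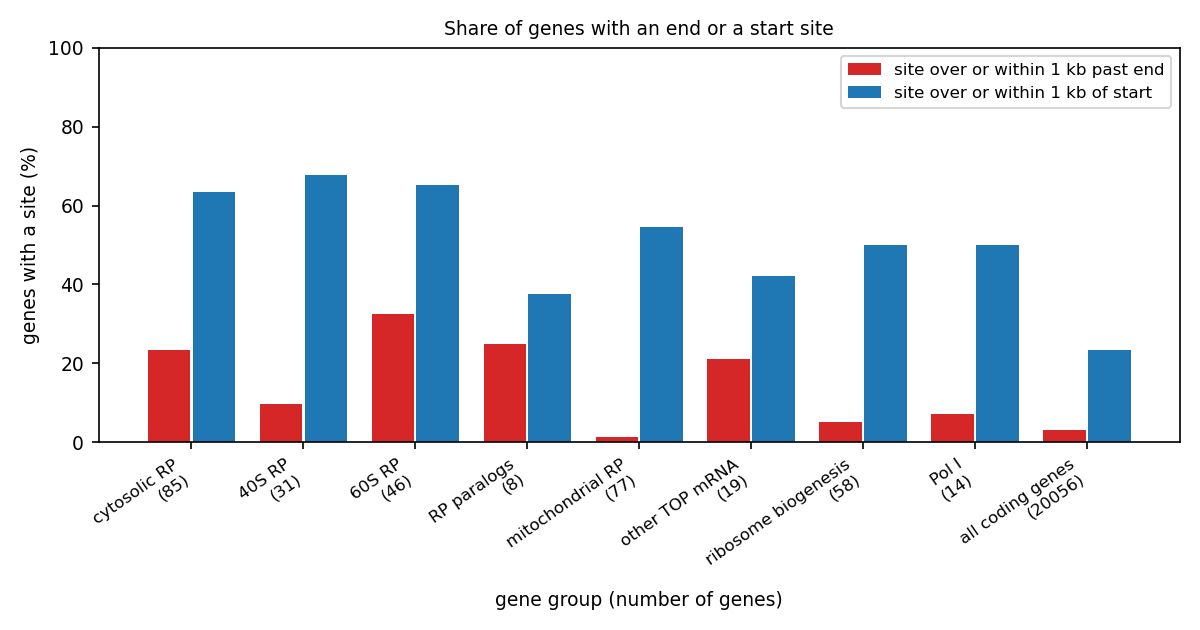
Share of genes (y axis, %) with a site over or within 1 kb past the end (red) or over or within 1 kb of the start (blue), by gene group (x axis, number of genes in brackets). RP stands for ribosomal protein. End sites were held by 32.6% of 60S genes and 1.3% of mitochondrial ribosomal protein genes, and by 3.10% of all coding genes.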

How the data were processed

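Per the submitters' processing notes, the tools were DiffBind, MACS2, Picard 1.92, SAMtools, Bowtie 1.1.1 and cutadapt 1.8.1, with genome build hg19. No source used here gives their order, their settings, how reads with several matches were placed, or the annotation release. Per the series' design text, 2 ChIP libraries were compared with 2 input libraries by DiffBind. The authors' deposited concentrations and folds are on a log2 scale, per the file headers. The deposited fold differed from ChIP less input by at most 0.01. The FDR is a q-value deposited by the authors. A second deposited list holds gene symbols only and was not used.

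Start sites were those over a listed start, or inside or upstream within 1 kb by the listed distance, which is measured to 1 edge of the site. End sites were those over a listed end or at most 1 kb past it. Genes were matched by Entrez ID, then symbol, to RefSeq coding genes of GRCh38.p14, used for names and lengths only. Positions are given counted from 1. Of 17 listed gene spans that end sites allow to be computed, 8 were within 100 bp of the RefSeq length. Medians and counts were computed with Python 3.11.15 and pandas 2.3.3, and the position classes were tested on simulated data. No test beyond the authors' FDR was run, since no value per library is given. Members and gene lists were chosen with earlier results of these data known. Any member could be named, and values were given in full for the 15 largest folds, the smallest FDRs, the largest ChIP concentrations, end sites, strong inside sites and the smallest folds. A few members that this rule covers are counted but not reported here by name.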

Additional observations from a re-analysis of the deposited data

How the results depend on the processing

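The count of genes with a site was 68, and 54 to 63 under the stricter FDR and fold limits, without paralogs and without chromosomes 4, 10, 13, 14, 18 and X. The count with a start site, 54, fell to 35 at an FDR under 0.001 and was 45 to 56 under the other alternatives. The median log2 fold of member sites, 1.49, was 1.54 at an FDR under 0.01, 1.71 at an FDR under 0.001, 1.57 with folds of at least 1, 1.48 without those chromosomes, 1.64 for the strongest site per gene and 1.33 for start sites alone. The end median exceeded the start median by 1.16. It exceeded it by 1.12 and 1.04 at the 2 FDR limits, 1.11 with folds of at least 1, 1.17 without paralogs, 1.14 without the chromosomes, 0.97 by the table's own position labels and 0.99 for sites with no other gene start within 1 kb. These settings for the end and start medians, and the limit of 10 kb on gene length, were chosen after seeing the data. The median of all sites over 1 kb from the start exceeded that of nearer sites by 0.69. Limits that remove weak sites raise a median by their construction. No paired analysis was possible because the table holds group means only, and for the same reason no library could be left out. Because the depth is unknown, a gene not in the table may have gone undetected.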
